A study of Mus musculus with 4 samples.

Results

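The steroid dehydrogenases and reductases of the liver were examined as 10 genes listed by symbol: Hsd3b5, Hsd3b2 and Hsd3b3, Hsd17b6, Hsd17b2 and Hsd17b13, Hsd11b1, Akr1c18 and Akr1c6, and Srd5a1. Of these 10, 9 had a probe set of their own among the 18193 genes measured, and Srd5a1 was not analysed here. Together the 9 were read by 12 probe sets that name 1 gene, and by 1 more that names Hsd3b2, Hsd3b3 and Hsd3b6 at once. The list was drawn up with the difference between genotypes already known, so the members' differences are given as a description, without a test.

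Livers of C57BL/6 mice were compared, wild type (WT) against mice with a liver-specific knockout of Baf60a (Baf60a LKO). Smarcd1 encodes BAF60a, which belongs to SWI/SNF chromatin remodelling complexes. All mice received a high-fat diet from 6 weeks of age for 10 weeks, and livers were taken after an overnight fast. Each genotype had 2 RNA pools, and every pool was hybridised to an Affymetrix mouse genome array of its own. The sources used here do not say how many mice went into a pool, their sex or the Cre line. Replicates are thus pools, and p-values cover the spread between pools only.

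These enzymes set how much active steroid a liver cell sees. Hsd3b and Hsd17b enzymes oxidise or reduce single hydroxyl and keto groups of androgens, oestrogens and progestins, Hsd11b1 regenerates active glucocorticoid from its inactive keto form, and Akr1c enzymes are aldo-keto reductases that use steroids among other substrates. Hsd3b5 acts mainly as a ketosteroid reductase and is known for its much higher expression in male than in female mouse liver. Hsd3b, Akr1c and the retinol dehydrogenases related to Hsd17b6 each lie in a cluster of duplicated genes, so 1 member can be set beside its closest relatives.

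Of the 9 measured members, 3 stood far from 0, and each came from a different family. Hsd3b5 and Hsd17b6 lay lower in Baf60a LKO and Akr1c18 lay higher, while the other 6 differed by less than 1 on the log2 scale. By limma with Benjamini-Hochberg adjustment 2 members were called lower and 1 higher, where 0.247% and 0.236% of all genes were called, and nothing is read from that count because the list was chosen on this contrast. The groups did not overlap for 4 members that lay lower (19.6% of all genes) and 3 that lay higher (22.8%), in both directions against 42.4% of all genes, with the same proviso. The median absolute log2 difference was 0.24 over the 9 members and 0.14 over all genes.

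**Figure D1:**
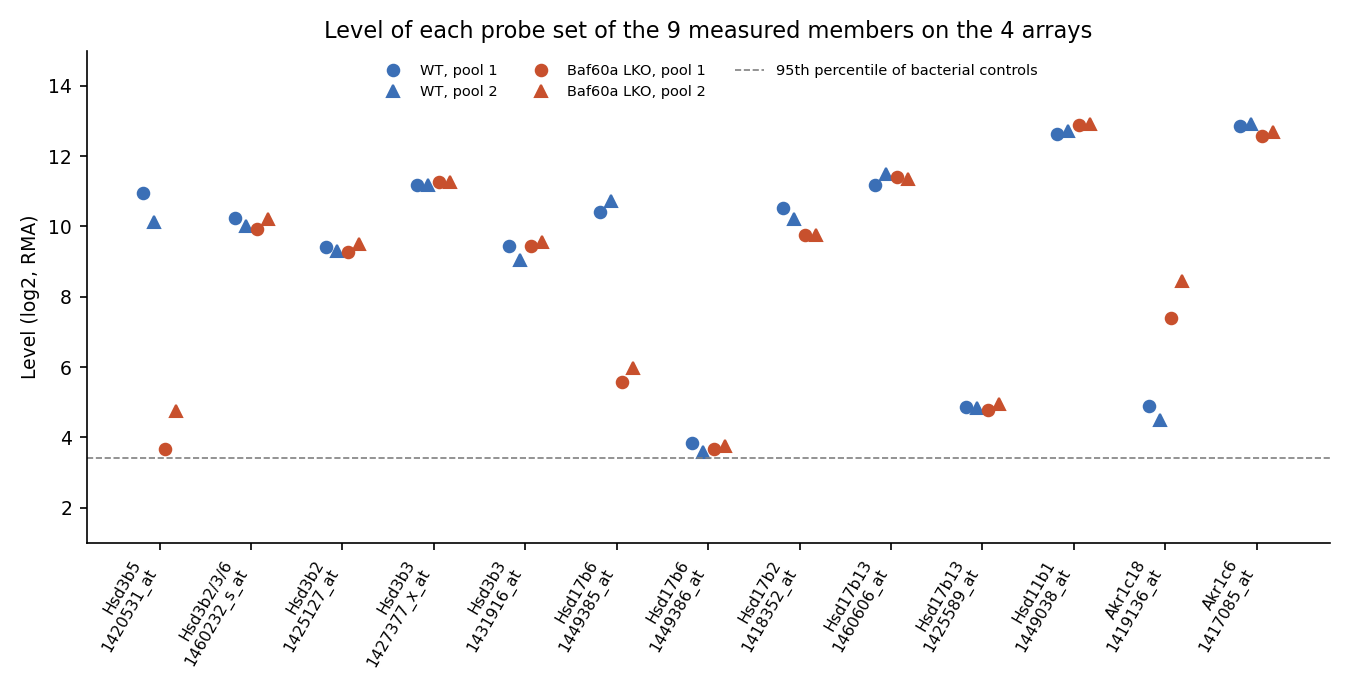
Log2 level (vertical axis) of each probe set of the 9 measured members (horizontal axis) on the 2 WT and 2 Baf60a LKO arrays, 1 point per RNA pool; the dashed line is the highest 95th percentile of the bacterial control probe sets, 3.42. Hsd3b5 and the brighter Hsd17b6 probe set drop from above 10 in WT to below 6 in Baf60a LKO, Akr1c18 goes from below 5 to above 7, and the other probe sets stay close together.

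The sequences just upstream of the annotated starts of these genes are shown for the 3 genes that stood far from 0 and for Hsd3b2 and Hsd3b3, the measured neighbours of Hsd3b5 on the list. Whether these sequences have a part in the differences was not tested. They are taken from RefSeq on GRCm38.p6 and read 5′ to 3′ on the gene's strand, which is the minus strand for all of them. In Hsd3b5 and Hsd3b3 the capitals mark the longest stretch that both share, and in Hsd3b2 they mark the letters AGAACA of a steroid receptor hexamer. The Hsd3b5 stretch is chr3:98645535-98645784, that of Hsd3b3 is chr3:98763129-98763378, upstream of the more upstream of its 2 starts in the table and inside the gene's annotated extent, and that of Hsd3b2 is chr3:98724544-98724793.
Hsd3b5: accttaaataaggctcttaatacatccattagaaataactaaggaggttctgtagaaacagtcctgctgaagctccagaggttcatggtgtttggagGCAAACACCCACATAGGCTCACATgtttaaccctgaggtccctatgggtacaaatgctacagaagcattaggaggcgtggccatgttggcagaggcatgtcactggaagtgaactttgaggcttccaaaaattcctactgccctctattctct
Hsd3b3: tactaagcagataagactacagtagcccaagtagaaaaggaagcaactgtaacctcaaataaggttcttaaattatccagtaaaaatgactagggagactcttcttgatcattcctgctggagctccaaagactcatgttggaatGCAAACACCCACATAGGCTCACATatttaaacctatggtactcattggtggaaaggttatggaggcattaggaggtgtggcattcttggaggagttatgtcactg
Hsd3b2: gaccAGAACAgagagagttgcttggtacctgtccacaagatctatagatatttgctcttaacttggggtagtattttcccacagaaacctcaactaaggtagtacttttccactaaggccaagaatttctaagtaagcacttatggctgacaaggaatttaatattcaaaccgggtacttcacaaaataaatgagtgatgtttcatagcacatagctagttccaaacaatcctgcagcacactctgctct

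Over the 250 bases upstream, Hsd3b5 and Hsd3b3 could be aligned for 199 bases at 75.9% identity, and they shared an unbroken run of 24 bases. That run lies at -153 to -130 from the Hsd3b5 start and at -105 to -82 from the Hsd3b3 start. Hsd3b5 and Hsd3b2 could be aligned locally for 31 bases only, with a longest shared run of 8. Among 196 pairs of genes that do not lie in the same cluster, the longest shared run was 6 to 11 bases. The window of Hsd3b5 was thus closer in sequence to that of Hsd3b3 than to that of Hsd3b2.

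The corresponding stretches of Hsd17b6 and Akr1c18, the other genes that stood far from 0, are shown for comparison. That of Hsd17b6 is chr10:128007649-128007861, where the last 37 of the 250 bases are left off because they lie in the gene's annotated extent, and that of Akr1c18 is chr13:4150647-4150896.
Hsd17b6: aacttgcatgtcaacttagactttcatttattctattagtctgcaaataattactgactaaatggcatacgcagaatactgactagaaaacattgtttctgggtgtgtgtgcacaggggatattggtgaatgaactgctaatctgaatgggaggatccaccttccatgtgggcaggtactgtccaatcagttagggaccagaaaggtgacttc
Akr1c18: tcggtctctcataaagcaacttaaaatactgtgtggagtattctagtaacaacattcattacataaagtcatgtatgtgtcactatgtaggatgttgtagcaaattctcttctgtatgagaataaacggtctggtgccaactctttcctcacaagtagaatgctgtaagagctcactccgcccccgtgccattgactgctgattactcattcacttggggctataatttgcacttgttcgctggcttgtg

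The longest run that Hsd17b6 shared with any of 6 relatives in its cluster was 8 bases, and Akr1c18 shared at most 9 with any of 6 other Akr1c genes. In the same windows 6 motifs were searched, TATAAA on the gene's strand and the rest on both strands. Shared runs and motifs were both sought in the full 250 bases, which for Hsd17b6 include the 37 bases not shown. They were the STAT5 site TTCNNNGAA (present in 7.02% of 32851 promoter windows of the same length), the steroid receptor hexamer AGAACA (16.1%), the nuclear receptor hexamer AGGTCA (14.0%), the HNF1 hexamer GTTAAT (6.43%), the C/EBP site TTGCNNAA (9.56%) and TATAAA (7.59%). Among the 9 members with a sequence in the table, which include Srd5a1 but not Hsd17b2, Hsd3b2, Hsd17b13 and Akr1c6 held at least 1 match. Hsd3b5, Hsd17b6 and Akr1c18 held 0 in this window, which says only that these letters are not there.

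Hsd3b5 read 10.96 and 10.12 in the WT pools and 3.68 and 4.75 in the Baf60a LKO pools, on the log2 scale. Both Baf60a LKO pools thus lay far below both WT pools, and the first of them lay close to the level of bacterial controls, whose 95th percentile reached 3.42. The log2 difference was -6.33 ± 0.42 (limma standard error, 2 pools per group), an 80.2-fold lower mean. The closest WT and Baf60a LKO pools differed 41.4-fold and the furthest 156-fold. With 1 array left out the difference ran from -6.86 to -5.79.

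The other Hsd3b genes did not share this difference. Hsd3b2, whose product belongs to the same dehydrogenase and isomerase family, read 9.41 and 9.30 in WT and 9.26 and 9.50 in Baf60a LKO, with overlapping groups. Its difference of 0.03 ± 0.14 turned below 0 after quantile or loess normalization and without WT replicate 2 or Baf60a LKO replicate 2. Hsd3b3, a further member of the family, read 11.17 and 11.18 in WT and 11.25 and 11.27 in Baf60a LKO on its brighter probe set (0.09 ± 0.11). On its other probe set, whose name lacks the Affymetrix suffix for probes shared between transcripts, it read 9.43 and 9.04 in WT and 9.43 and 9.56 in Baf60a LKO, a difference of 0.26 ± 0.17.

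The probe set annotated jointly to Hsd3b2, Hsd3b3 and Hsd3b6 read 10.23 and 10.02 in WT and 9.93 and 10.22 in Baf60a LKO, so it too overlapped between groups. Relatives this similar can share probes, so single values of Hsd3b2 and Hsd3b3 are uncertain. In the same Baf60a LKO pools the Hsd3b5 probe set was at 3.68 and 4.75.

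In RefSeq order on chromosome 3 the protein-coding genes run Hsd3b4, Gm10681, Hsd3b5, Hsd3b2, Hsd3b3, Hsd3b6 and Hsd3b1. Of these 7, 4 had a probe set of their own, and the 3 besides Hsd3b5 differed by -0.08 to 0.09. Hsd3b1, the form used in adrenal and gonad, stayed below the bacterial 95th percentile on every array (2.55 to 3.12). The joint probe set of Hsd3b4, Gm4450 and Gm10681 was as dim, at 2.80 to 2.97.

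Hsd17b6, which oxidises androgen diols and is related in sequence to retinol dehydrogenases, was read by 2 probe sets that gave different pictures. The brighter one read 10.42 and 10.73 in WT and 5.58 and 5.97 in Baf60a LKO, groups that lay far apart. Its log2 difference was -4.80 ± 0.19, a 27.9-fold lower mean, and 21.9-fold between the closest pools. The other probe set read 3.84 and 3.60 in WT and 3.66 and 3.76 in Baf60a LKO, near the bacterial controls on all 4 arrays and with a difference of -0.01 ± 0.14. It was thus dim also in WT, where the brighter one was above 10, and the mean of the pair gave a smaller log2 difference of -2.41. With 1 array left out the brighter probe set gave -5.00 to -4.61.

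Hsd17b6 lies on chromosome 10 at the end of a run of retinol dehydrogenase genes, and those did not follow it. The 9 measured genes around it, from Gpr182 to Naca, differed by -0.43 to 0.61. The lowest of these, Rdh1, read 2.05 to 2.51 and was below the bacterial 95th percentile on all 4 arrays, and without it the range was -0.24 to 0.61. Sdr9c7, next to Hsd17b6 on that side, read 7.33 and 7.47 in WT and 7.54 and 7.32 in Baf60a LKO. Prim1, next on the other side, differed by 0.15 ± 0.12. Rdh16f2 and Rdh9 lay higher, by 0.61 ± 0.13 and 0.44 ± 0.13, with groups that did not overlap (limma, adjusted p = 0.217 and 0.397). Rdh9 had only a probe set whose name carries the Affymetrix suffix for probes shared between transcripts, so its single value is uncertain. With a trended and robust eBayes Rdh16f2 had an adjusted p of 0.0260 by limma. Rdh7, a further retinol dehydrogenase, differed by -0.24 ± 0.11.

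Hsd17b2, which oxidises oestradiol and testosterone to less active ketones, read 10.53 and 10.21 in WT and 9.76 in both Baf60a LKO pools. The groups did not overlap, and the log2 difference was -0.61 ± 0.15. It ran from -0.77 without WT replicate 2 to -0.45 without WT replicate 1. Hsd17b13, a protein of the lipid droplet surface, read 11.17 and 11.48 in WT and 11.40 and 11.34 in Baf60a LKO, with both Baf60a LKO pools between the WT pools. Its difference of 0.04 ± 0.15 was -0.12 without WT replicate 1. Its second probe set was dim, at 4.83 and 4.86 in WT and 4.78 and 4.95 in Baf60a LKO, and gave the same picture.

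Because HSD17B13 protein sits on lipid droplets, 14 droplet genes were set beside it. Of these 14, 3 fell by limma, where 0.247% of all genes were called lower. They were Plin4 (log2 difference -2.75 ± 0.25, limma adjusted p = 0.0220), Fitm1 (-1.12 ± 0.12, limma adjusted p = 0.0321) and Cidea (limma adjusted p = 0.0220). Cidea read 4.44 and 4.61 in WT but was not above background in Baf60a LKO (3.17 and 3.13), so it is given only as at least 2.15-fold lower, with the bacterial 95th percentile as the level in Baf60a LKO. All 3 calls were lost with any 1 array left out, and those of Cidea and Fitm1 also with a replicate block. The other 11 were not called, and the list's median was -0.15, against 0 over all genes. At an unadjusted p under 0.05 there were 0 higher and 5 lower, and a trended and robust eBayes called 3. The list was drawn up with earlier results known, so nothing is read from these counts. Hsd17b11, the droplet relative of Hsd17b13, differed by -0.05 ± 0.12 on its brightest probe set.

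Hsd11b1 read 12.64 and 12.70 in WT and 12.89 and 12.91 in Baf60a LKO. The groups did not overlap, and the difference was 0.23 ± 0.11, or 0.20 to 0.26 with 1 array left out. H6pd, which makes the NADPH that HSD11B1 uses in the endoplasmic reticulum, differed by 0.15 ± 0.12 (limma, adjusted p = 0.689). Hsd11b2, the opposing enzyme of kidney, stayed below the bacterial 95th percentile on every array (2.12 to 2.31).

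Akr1c18, the reductase that inactivates progesterone, read 4.90 and 4.49 in WT and 7.40 and 8.45 in Baf60a LKO. Both Baf60a LKO pools lay above both WT pools, but they differed from each other by 1.05. The log2 difference was 3.23 ± 0.36, a 9.39-fold higher mean, and 5.68-fold to 15.5-fold between the closest and the furthest pools. Without Baf60a LKO replicate 2 it was 2.71 and without Baf60a LKO replicate 1 it was 3.75. Akr1c6, which reduces ketosteroids at the same position as the Hsd17b enzymes, moved little and the other way, from 12.84 and 12.90 in WT to 12.57 and 12.69 in Baf60a LKO (-0.24 ± 0.12).

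Along chromosome 13 the Akr1c genes run from Akr1c14, Akr1c18 and Akr1c13 to Akr1c21 and Akr1e1, and all 9 had a probe set. The 8 besides Akr1c18 differed by -0.24 to 0.23. Its direct neighbours Akr1c14, which acts on the steroid A ring, and Akr1c13 differed by -0.17 ± 0.14 and 0.23 ± 0.16, with overlapping groups. Akr1c12 and Akr1c13 are close copies, with upstream windows 95.5% identical over 246 aligned bases, and their single values are uncertain. In this cluster, as in both others, 1 gene stood apart and its measured neighbours stayed within 0.61 of 0. Over the 3 clusters, limma called 0 of the 17 measured genes outside the list, with 2 higher and 1 lower at an unadjusted p under 0.05 and 1 called with a trended and robust eBayes. The 1 lower was Rdh1, which was not above background.

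**Figure D2:**
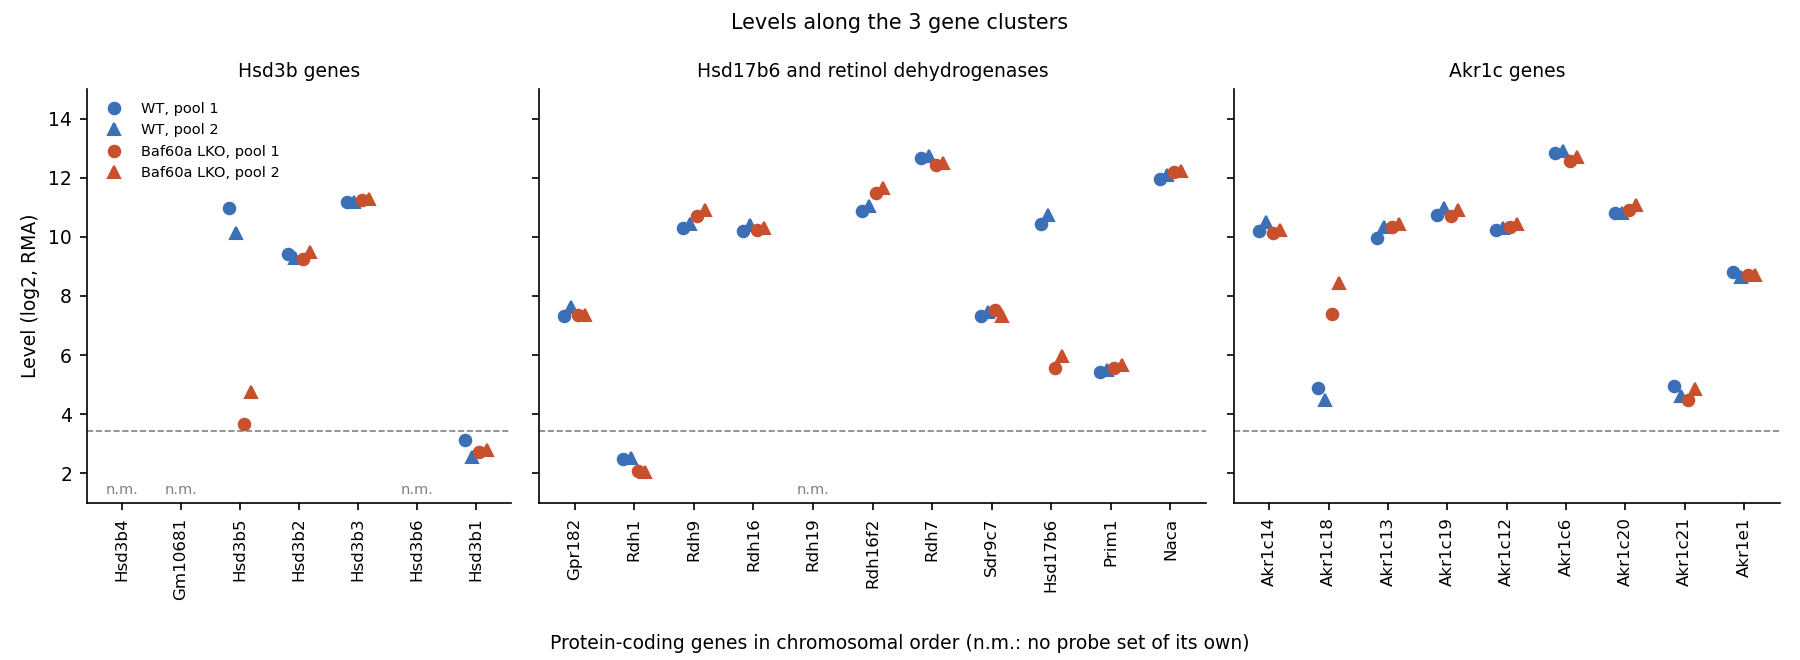
Log2 levels (vertical axis) of the protein-coding genes in chromosomal order (horizontal axis) in the Hsd3b, Hsd17b6 and Akr1c clusters, 1 point per array; n.m. marks genes with no probe set of their own. In each panel 1 gene separates the groups by 3.23 or more (Hsd3b5, Hsd17b6 and Akr1c18), and the genes on both sides lie within 0.61.

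Beyond the members, 31 of 40 listed relatives had a value, and by limma 0 of them were called, where 0.484% of all genes were. At an unadjusted p under 0.05 there were 3 higher and 4 lower, Rdh1 among the latter, where 10.2% of all genes passed, and a trended and robust eBayes called 1, Rdh16f2. Of the 8 further Hsd17b genes, 7 lay below 0, with a median of -0.27 against 0 over all genes. The median was -0.42 without WT replicate 2 and -0.11 without WT replicate 1. Among the genes below 0, Hsd17b3 was above background on 0 of the 4 arrays, Hsd17b14 on 1 and Hsd17b1 on 2. With only the brighter 50% of genes, 4 of 5 lay below 0, with a median of -0.18 against 0.08 over all genes kept. Hsd17b10, a mitochondrial dehydrogenase, read 11.87 in both WT pools and 11.18 and 11.48 in Baf60a LKO (-0.54 ± 0.14, limma adjusted p = 0.330). Hsd17b12, of fatty acid elongation, differed by -0.39 ± 0.12 (limma, adjusted p = 0.375). Both were chosen after their values were seen, and both were lower on each of their 2 probe sets.

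Hsd17b4, of peroxisomal oxidation, differed by -0.18 ± 0.12 on its brighter probe set and by 0.11 ± 0.16 on the other, where the groups overlapped. Among the further Hsd3b genes, Hsd3b7 of bile acid synthesis differed by -0.19 ± 0.12 and Nsdhl of cholesterol synthesis by -0.68 ± 0.16 (limma, adjusted p = 0.596 and 0.262). The 9 further aldo-keto reductases of family 1 had a median of -0.03, with Akr1c20 at 0.18 ± 0.12 and Akr1c19 at -0.03 ± 0.15. Srd5a3, the relative of Srd5a1 that was measured, read 7.40 and 7.39 in WT and 7.58 and 7.83 in Baf60a LKO (0.31 ± 0.13, limma adjusted p = 0.510).

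**Figure D3:**
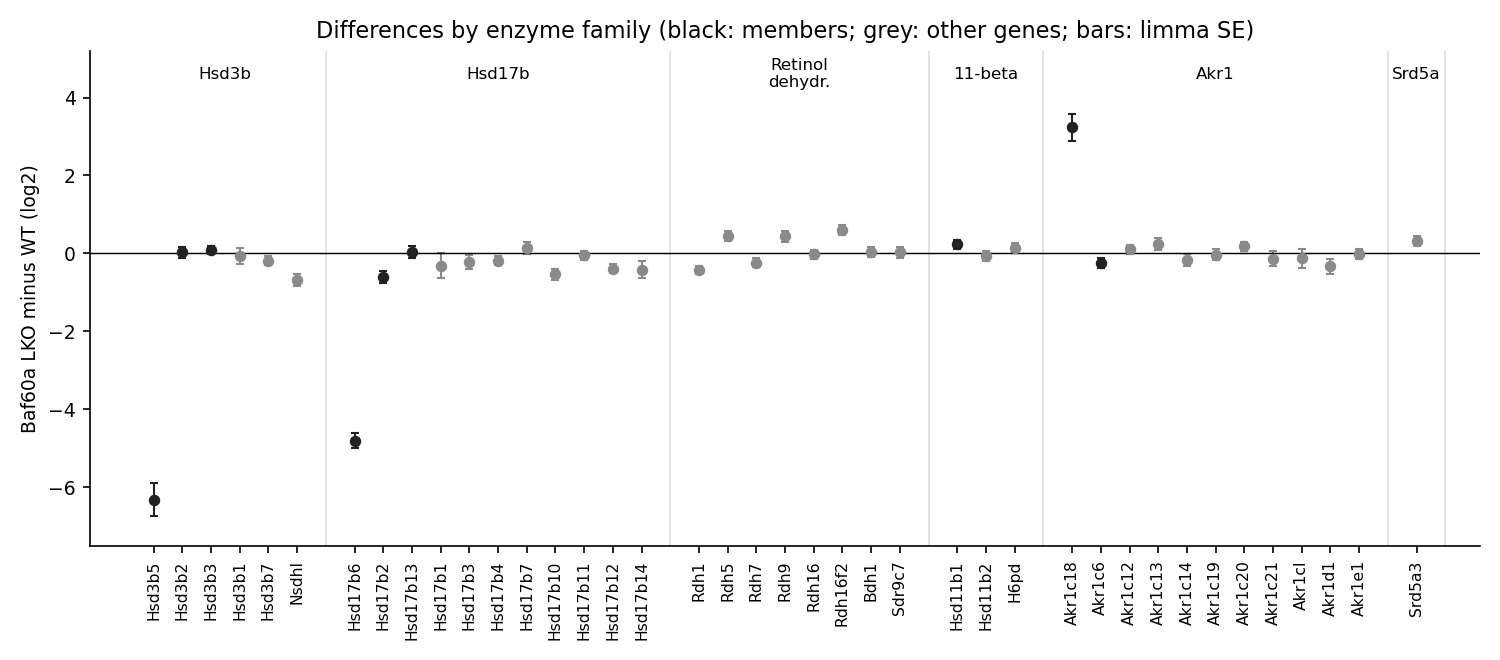
Log2 difference, Baf60a LKO minus WT (vertical axis), for each measured gene of the 6 enzyme groups (horizontal axis); points are limma estimates from 2 pools per group, bars are standard errors, black marks members and grey other genes. Hsd3b5, Hsd17b6 and Akr1c18 lie at -6.33, -4.80 and 3.23, and all other points lie between -0.68 and 0.61.

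The receptors that bind these steroids and the genes they act on gave the following counts. Of 10 measured steroid receptors and partners, 0 were called by limma, 0 passed an unadjusted p under 0.05 and 0 were called with a trended and robust eBayes. Esr1, the oestrogen receptor, differed by 0.21 ± 0.21 and the chaperone partner Fkbp4 by -0.20 ± 0.13. Of 14 glucocorticoid-induced genes, 0 were called by either limma fit and 1 was lower at an unadjusted p under 0.05, and their median was -0.01. Pck1, of gluconeogenesis, differed by 0.31 ± 0.13 and Tdo2, of tryptophan breakdown, by 0.11 ± 0.13.

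Of 12 further genes of steroid hydroxylation and conjugation, Cyp7b1 was the 1 that fell and 11 were not called. At an unadjusted p under 0.05 there were 0 higher and 3 lower, and a trended and robust eBayes called 2, Cyp7b1 and Cyp3a11. Cyp3a11, a steroid and drug hydroxylase picked here after its values were seen, read 11.85 and 12.38 in Baf60a LKO, below both WT pools (-0.88 ± 0.19, limma adjusted p = 0.233, and 0.0490 with a trended and robust eBayes). Cyp7b1, which hydroxylates oxysterols and androgen precursors, differed by -1.48 with its probe sets averaged. On its brightest probe set it read 11.81 and 11.10 in WT and 9.25 and 9.28 in Baf60a LKO (-2.19 ± 0.24, limma adjusted p = 0.0385). This call too was lost with any 1 array left out and with a replicate block. Of 12 genes of the growth hormone axis, which sets male and female patterns of liver expression, all lay below 0, with a median of -0.19. Only 9 did so when the second array of either genotype was left out. The count was 11 after subtraction of array medians (median -0.16), with probe sets averaged (-0.11) and without _x_at and _s_at probe sets (-0.21). By limma 0 were called, with 2 lower at an unadjusted p under 0.05 and 0 with a trended and robust eBayes. Ghr, the growth hormone receptor, differed by -0.07 ± 0.12 and Igf1, the growth factor it induces, by -0.27 ± 0.11.

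Since Hsd3b5 depends on sex, genes of the sex chromosomes were read on each array. The Y-linked genes Eif2s3y and Kdm5d were present on all 4, at 7.49 to 8.22 and 5.91 to 6.13, and Xist, which is expressed from the inactive X, read 3.29 to 3.74, near background. By limma 0 of the 4 measured genes were called, with 1 higher at an unadjusted p under 0.05, Uty on the Y, named after its values were seen (4.33 and 4.23 in WT, 4.87 and 4.61 in Baf60a LKO), and 0 with a trended and robust eBayes.

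The 3 members that stood apart were each set beside the genes whose levels followed theirs most closely over the 4 arrays, by the root mean square distance of log2 levels after each gene's own mean was subtracted. Among 18192 other genes Hsd17b6 lay closest to Nr1i3, the gene of the xenobiotic receptor CAR (distance 0.11), then to Mup10 (0.18), Serpina12 (0.30), Cyp2c50 (0.53) and Cyp2c54 (0.56). Nr1i3 itself read 11.21 and 11.26 in WT and 6.33 and 6.58 in Baf60a LKO. Hsd3b5 lay closest to Nr1i3 (0.89), Hsd17b6 (0.90), Serpina12 (0.94), Mup10 (0.99) and Cyp2b9 (1.04). Akr1c18 lay closest to Tcf24 (0.37), Saa2 (0.40), Orm2 (0.46), Hebp2 (0.51) and Pcp4l1 (0.55). With 4 arrays in 2 groups this distance reflects mainly the size and direction of the difference between genotypes.

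**Figure D4:**
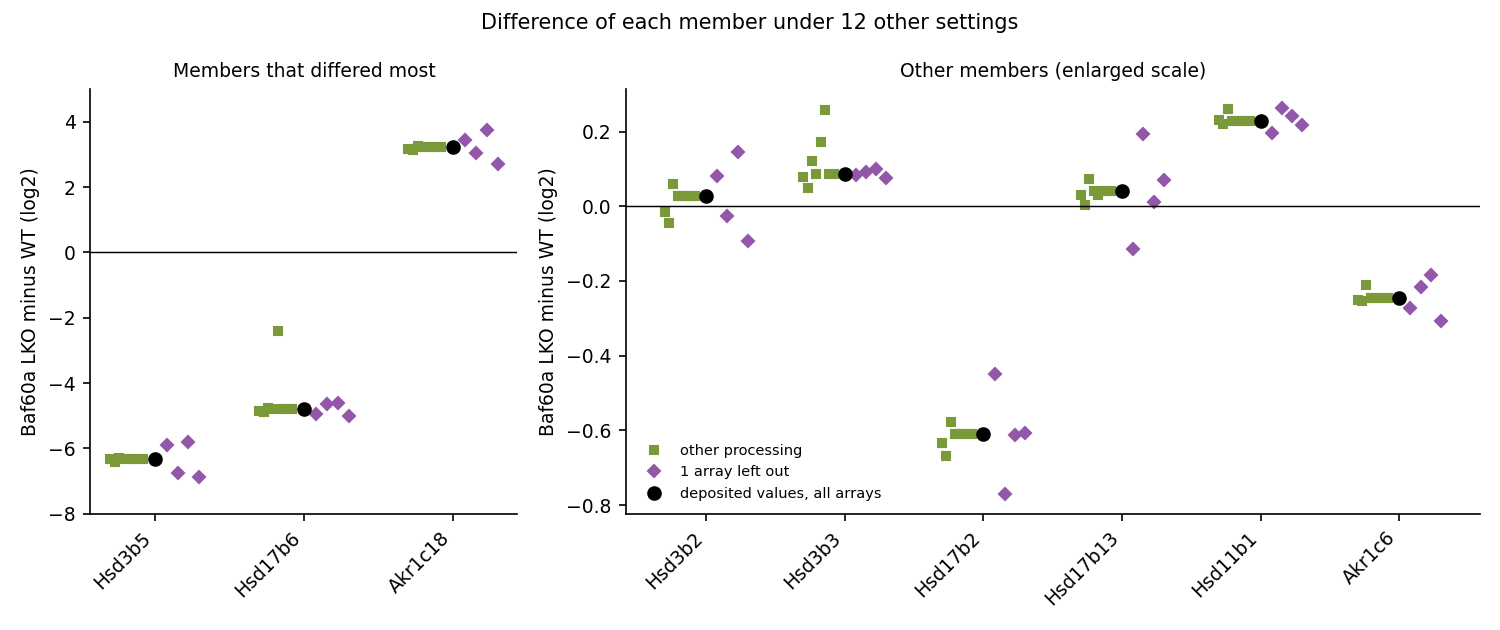
Log2 difference, Baf60a LKO minus WT (vertical axis), of each measured member (horizontal axis) with the deposited values (black), under other processing (green squares) and with 1 array left out (purple diamonds); the right panel has an enlarged scale. Hsd3b5 stays between -6.86 and -5.79 and Akr1c18 between 2.71 and 3.75, while Hsd17b6 reaches -2.41 when its 2 probe sets are averaged, and Hsd3b2 and Hsd17b13 fall on both sides of 0.

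Libraries and labels were checked on the same arrays. The array medians lay between 4.19 and 4.27, and WT replicate 1 correlated least with the others over probe sets (0.987 to 0.991). Smarcd1 read 5.62 and 5.88 in WT and 5.34 and 5.30 in Baf60a LKO on its brighter probe set, whose place relative to the deletion is not known. A probe set for Cre read 2.80 and 2.48 in WT and 5.87 and 6.22 in Baf60a LKO. Of 8 hepatocyte markers 0 were called by limma (0 at an unadjusted p under 0.05 and 0 with a trended and robust eBayes), and Alb read 14.05 to 14.17. The same counts held for 7 Kupffer cell, 6 endothelial, 7 stellate and 4 adipocyte markers, with Adipoq at 2.35 to 2.49.

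Markers of cholangiocytes, the cells of bile ducts, lay higher in Baf60a LKO as Akr1c18 did. All 6 measured were above 0, 4 at an unadjusted p under 0.05 and 0 called by either limma fit, and their summed linear level was 106 and 131 in WT and 187 and 258 in Baf60a LKO. Epcam differed by 1.17 ± 0.21 and Pkhd1 by 1.34 ± 0.30. Their part in the difference of Akr1c18 was not tested. Of 8 adrenal and gonad markers 0 were called by either limma fit, with 1 higher at an unadjusted p under 0.05. Cyp11b1, Cyp11a1 and Cyp11b2 were near background, at 3.06 to 3.68, 2.65 to 3.10 and 2.90 to 3.40. The rest of this list lay above 3.42, the background line, on all 4 arrays. Cyp17a1 and Star, its brightest, read 5.74 to 6.70 and 5.24 to 5.42. Cyp21a1, Nr5a1 and Inha read 5.04 to 5.29, 3.80 to 4.26 and 3.82 to 4.54. Fewer cells of a type and less RNA per cell cannot be told apart in such bulk samples.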

How the data were processed

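Liver RNA of 2 WT and 2 Baf60a LKO pools was measured on 4 arrays, grouped by the genotype in the labels. The deposited values are log2 levels, 1 per probe set and array, and the submitters' processing notes name RMA, affy and limma, without versions. RMA compresses differences at low levels, and arrays hold no read depth, so the number of arrays limits the precision. Of 45101 probe sets, 64 controls were left out. Symbols came from the platform annotation (34945 probe sets with 1 symbol, 932 with several, 9160 not listed), updated by Entrez number through RefSeq of GRCm38.p6. No build is named for the values, so gene order, starts, gene extents, upstream sequences and their coordinates are those of RefSeq on that build and were not matched to probe positions. Each gene was represented by its brightest probe set by mean, with no filter on level. Background was gauged by 41 probe sets for bacterial transcripts (95th percentiles 3.02 to 3.42).

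The contrast of Baf60a LKO with WT was fitted by limma 3.58.1 (lmFit, eBayes; R 4.3.3), 2-sided, with Benjamini-Hochberg adjustment over 18193 genes and a threshold of 0.05. Standard errors of genes come from this fit, and those of second probe sets from the same fit over 45037 probe sets. The scripts were tested on simulated data. The members, the gene lists, the motifs and the clusters were chosen with earlier results of these data known. Named were all members with every probe set, called genes of each list (up to 4) or else up to 2 of its brightest, chromosomal neighbours, and the 5 genes nearest in level to Hsd3b5, Hsd17b6 and Akr1c18. Genes outside this rule are marked as picked with values in view, except markers and relatives named for levels near background. Alternatives were 3 further normalizations, the brighter 50% of genes, averaged probe sets, no _x_at or _s_at probe sets, a replicate block, an eBayes that was trended and robust, and each array left out. Python 3.11.15 and matplotlib 3.10.9 drew the figures.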

Additional observations from a re-analysis of the deposited data

How the results depend on the processing

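Of 108 values of the 9 members under 12 other settings, 103 moved by less than 1 standard deviation of the pools, 5 by more, and 0 of the called members changed sign. The 5 were 4 values of Hsd3b3 (0.05 to 0.26) and the averaged Hsd17b6 value. The count of called genes, 88 (43 higher, 45 lower), was 142 after cyclic loess, 154 with array medians subtracted (91 higher, 63 lower), 216 with a trended and robust eBayes and 0 to 17 with 1 array left out. By limma it was 0 when WT replicate 1 was dropped, with 1630 genes at an unadjusted p under 0.05, 3 when WT replicate 2 was, and 10 and 17 when Baf60a LKO replicates 1 and 2 were. The count of called probe sets, 84 (30 higher, 54 lower), was 139 after quantiles (67 higher, 72 lower), 162 after loess (79 higher, 83 lower), 146 with array medians subtracted (78 higher, 68 lower), 173 with a trended and robust eBayes (74 higher, 99 lower) and 0 with any 1 array left out (1196 to 10697 at an unadjusted p under 0.05). A fit with 1 array left out has 1 residual degree of freedom in place of 2, and assumes that the lone pool varies like the other group. Among the relatives outside the list, 1 gene was called with a trended and robust eBayes and 0 under the 11 other settings.

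With the replicate number as a block, 19 genes (5 higher, 14 lower) and 4 probe sets (1 higher, 3 lower) were called. The labels do not say that equal numbers share a source. Deviations of same-numbered pools from their group means correlated at 0.147 over probe sets. The cause of the other changes in these counts was not tested.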

Other observations

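Probe sets of some relatives disagreed. Hsd17b11 read 9.01 and 9.31 in WT and 9.01 and 7.30 in Baf60a LKO on its second probe set, so that Baf60a LKO replicate 2 stood alone, while its brightest probe set stayed between 12.62 and 12.73 on all 4 arrays. Igfbp1, the 1 glucocorticoid-induced gene that was lower at an unadjusted p under 0.05, read 9.67 and 10.36 in WT and 8.74 and 8.99 in Baf60a LKO (-1.15 ± 0.25, limma adjusted p = 0.219). Cyp17a1, the steroid hydroxylase that was higher among the adrenal and gonad markers, read 5.74 and 6.28 in WT and 6.70 and 6.60 in Baf60a LKO (0.64 ± 0.20, limma adjusted p = 0.404). These genes were chosen after their values were seen.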
